A study of Mus musculus with 12 samples.

Results

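Ileum mucosa of mice with a targeted gene for the nuclear receptor PPARβ/δ (Ppard, genotype FSPCre-PPARB -/-) was compared with ileum mucosa of floxed mice (genotype PPARB flox/flox). The comparison held 6 of the 12 arrays of the series, 3 titled as knockout and 3 as floxed, and the other 6 arrays measured colon mucosa of the same genotypes, 3 each. Per the labels, all mice were untreated C57BL6/J male littermates of 4 to 6 weeks. Both ileum groups carried floxed Ppard alleles, the controls were listed with no Cre, and no group carried the Cre without floxed alleles, so an effect of the Cre itself and loss of the receptor cannot be told apart. The Cre was named for FSP, fibroblast-specific protein, whose gene is S100a4 and is known to be active in fibroblasts and in some myeloid cells. Mucosa had been cut by laser from stained sections, and mucosa holds epithelium together with stroma and immune cells. The RNA had been amplified from very small amounts before it was hybridised to an array of exon regions and exon junctions. One label field named tumours as the source, while the titles and the tissue field named mucosa. The labels do not say that the 3 arrays of a group came from separate mice beyond their numbers, so p-values measure the spread between these arrays, which may be technical in part.

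PPARβ/δ is a receptor for fatty acids and their derivatives that binds DNA together with a retinoid X receptor and is known to drive genes of fatty acid oxidation and lipid storage. The ileal mucosa absorbs bile acids, vitamins and remaining nutrients through enterocytes, and its crypts hold stem cells, mucus-secreting goblet cells, hormone-secreting enteroendocrine cells, chemosensory tuft cells and Paneth cells, which release antimicrobial proteins at the crypt base. Fibroblasts and smooth muscle cells beneath the crypts are known to supply Wnt, R-spondin and BMP signals to the epithelium.

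The label of the tissue was checked against its defining markers. Fabp6, the bile acid binding protein of ileal enterocytes, was at a log2 value of 10.7 ± 0.28 in knockout and 10.6 ± 0.60 in floxed ileum (mean ± SD, n = 3 arrays each), against 3.42 and 3.74 in the colon groups. The colonocyte carbonic anhydrase Car1 was at 3.22 ± 0.41 and 2.77 ± 0.19 in ileum, against 10.3 and 8.96 in colon. Both markers differed between ileum and colon in the direction of the tissue labels. Of the colon markers, Car4 (6.97 and 5.87 in ileum, 6.53 and 6.65 in colon) and the homeobox gene Hoxd13 (2.91 and 2.96 against 2.90 and 3.20) did not set the tissues apart.

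A pair of ileum arrays stood apart. On the first principal component of all genes, which held 32.0% of the variance of the 12 arrays, knockout array 1 was at -72.3 and floxed array 2 at 43.9, while the other 4 ileum arrays lay between -14.6 and 0.574. The background of the arrays, the mean log2 value of their GC-rich background rows, was 6.01, 6.30 and 6.38 in knockout arrays 1 to 3 and 6.60, 7.06 and 6.60 in floxed arrays 1 to 3. The groups did not overlap in these rows, with knockout array 1 the lowest and floxed array 2 the highest, so that in this set of 6 arrays the GC-rich background and genotype cannot be told apart. The median of the negative control rows did overlap, at 2.46, 2.54 and 2.64 in knockout and 2.56, 2.58 and 2.54 in floxed arrays. Each gene group below is therefore also given without knockout array 1, without floxed array 2 and without both, the last of which was added after the values had been seen. Each list with a median between -0.12 and 0.11 changed sign or moved by over 1.5 times when some single ileum array was left out.

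Over 31276 genes, limma called 0 genes higher and 0 lower in knockout ileum at an adjusted p under 0.05 (0% of genes), and the smallest adjusted p was 0.5505. At an unadjusted p under 0.05 there were 2079 genes (6.65%), 1131 higher (3.62%) and 948 lower (3.03%), where 1564 would be expected if no gene differed. Without knockout array 1 these became 586 and 521, without floxed array 2 they became 452 and 472, without both 519 and 372, and without knockout array 2 they became 2182 and 1425. With the mean in place of the median over a gene's rows they were 924 and 1140, and with array weights 853 and 935, so the larger side turned. Every difference named below failed the test in this fit, and the values describe these 6 arrays. All 3 knockout arrays lay above all 3 floxed arrays for 1582 genes (5.06%) and below them for 1862 (5.95%). These 2 shares are the background for every count of separated genes that follows.

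The direction of the differences went with brightness. A positive knockout minus floxed difference was found in 48.7% of all genes, but in 64.9% of the brightest 6255, whose mean log2 value over the 6 arrays was at least 5.07. The median difference was 0.12 in these and -0.05 in the dimmest 6256 genes. Among the brightest 6255 genes, 9.32% had separated arrays with a higher knockout mean and 4.97% with a lower one. In the colon, medians were 0.18 and -0.09 in the same 2 sets of genes. The ileum figures for bright genes are the background for the lists of abundant transcripts below. Among the brightest 6255 were 16 of 19 brush border, 15 of 17 junction and adhesion and 12 of 13 glycolysis genes. So were 15 of 20 endoplasmic reticulum folding, 14 of 16 cytosolic ribosomal protein and 14 of 24 proteasome genes. Smooth muscle had 9 of 12 genes there.

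**Figure D1:**
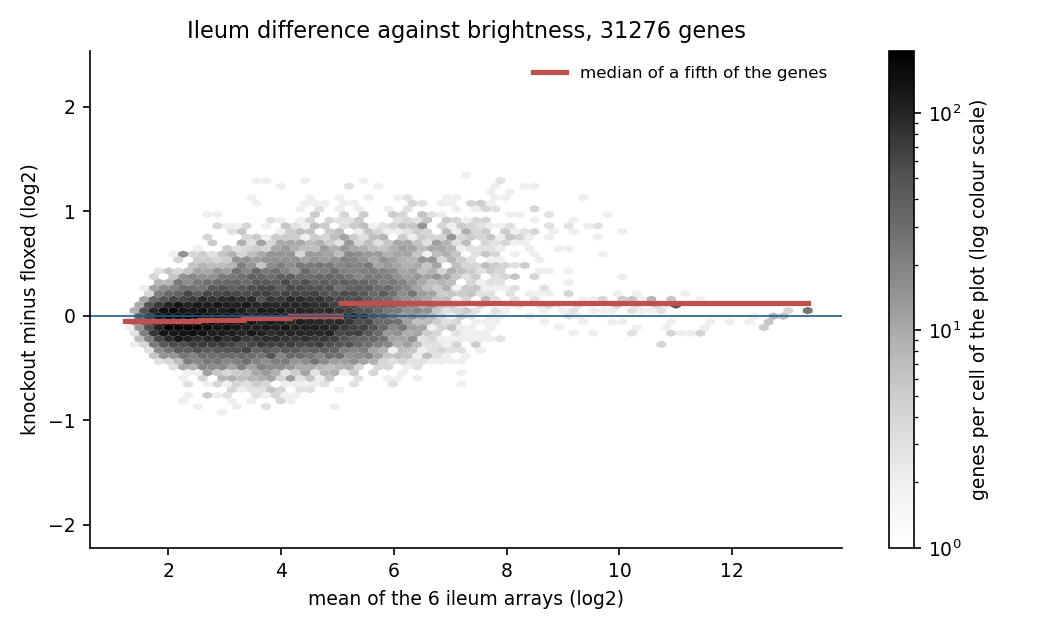
Knockout minus floxed difference (log2) of 31276 genes in the ileum against their mean over the 6 arrays (log2). The grey scale counts genes on a log colour scale, and red lines are the medians of 5 equal groups of genes by brightness, from -0.05 in the dimmest to 0.12 in the brightest.

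The targeted gene was measured first. Ppard was at 6.95, 6.61 and 6.78 in knockout arrays 1 to 3 and at 6.49, 6.15 and 6.54 in floxed arrays 1 to 3. The knockout arrays were all above the floxed arrays, the opposite of the direction that the genotype names, and the difference was 0.39 on the log2 scale (95% interval -0.06 to 0.83, limma adjusted p = 0.711). Of its 23 array rows, 1 was separated with lower and 2 with higher knockout values, and none passed the test over 719071 rows. The row with separated lower values, an exon region, was at 11.4, 11.6 and 11.6 in knockout and 11.7, 11.9 and 11.8 in floxed arrays, a difference of -0.26 (adjusted p = 0.733). The labels do not say which exons are floxed, so rows that lie outside them say nothing of the deletion. S100a4 was at 3.88, 4.15 and 2.80 in knockout and 2.90, 3.87 and 3.51 in floxed arrays, with full overlap (difference 0.18, adjusted p = 0.897). Since mucosa was measured, cells without Cre activity contribute to every value.

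Partners and co-regulators of the receptor were measured with 10 genes, of which 8 had a positive difference, with a median of 0.11. The retinoid X receptor gene Rxra, whose product pairs with the PPARs, was at 6.37, 6.05 and 6.23 in knockout and 5.87, 5.55 and 6.05 in floxed arrays, which overlapped by a narrow margin. Ppara and Pparg, the other receptors of the family, had differences of 0.11 and 0.10, with overlapping arrays. The median was 0.22 without floxed array 1 or without knockout array 3, 0.03 without floxed array 2 and -0.03 without knockout array 1 and floxed array 2.

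Genes known to respond to PPARs, mostly enzymes of mitochondrial fatty acid oxidation, had a positive difference in 15 of 21 cases, with a median of 0.34. Acadl, a long-chain acyl-CoA dehydrogenase, was at 6.73, 5.34 and 5.39 in knockout and 5.10, 4.19 and 4.997 in floxed arrays (difference 1.06, adjusted p = 0.711). Separated arrays with higher knockout values were also found for Cpt1a, the enzyme that admits fatty acids to mitochondria (0.46), for Etfdh (0.41) and Acaa2 (0.40) of the oxidation pathway, and for the lipid droplet protein gene Plin2 and the uncoupling protein gene Ucp2 (0.34 each). The single separated gene in the other direction was Ucp3, at 4.70, 4.87 and 4.72 in knockout and 4.95, 5.66 and 5.02 in floxed arrays (-0.45). Pdk4 and Angptl4, which are widely used as reporters of PPARβ/δ activity, had overlapping arrays and differences of 0.16 and -0.05. In this list 6 of 21 genes were separated upward, against 5.06% of all genes. Of the 21 genes 11 were among the brightest 6255, where 9.32% were separated upward and 64.9% had a positive difference. The list median was 0.15 without knockout array 1, 0.17 without floxed array 2 and 0.05 without both.

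Genes with the clearest separation between the groups came from several functions. Lgals2, a galectin of the epithelium that binds carbohydrates, was at 9.89, 8.57 and 8.50 in knockout and 7.75, 7.44 and 8.02 in floxed arrays (difference 1.25, 95% interval 0.54 to 1.96). Parl, a rhomboid protease of the inner mitochondrial membrane, was at 4.41, 3.78 and 4.198 in knockout and 3.32, 3.001 and 3.37 in floxed arrays (0.90). Gins4, a subunit of the GINS complex that opens replication forks, was at 4.81, 4.59 and 4.19 in knockout and 3.57, 3.67 and 3.93 in floxed arrays (0.81). These genes were chosen for smallest p among genes with separated arrays, so their separation was fixed by that choice. Their differences without knockout array 1 and floxed array 2 were 0.65, 0.64 and 0.65. The other genes of smallest p with a higher knockout mean were Tm2d1 (0.95), the ubiquitin-like modifier gene Sumo3 (0.57), the ubiquitin ligase gene Obi1 (0.69), the ubiquitin-conjugating enzyme gene Ube2j2 of the endoplasmic reticulum (0.55), the phospholipase gene Plaat3 (0.55), Coa5, an assembly factor of cytochrome oxidase (0.98), Sec13, a coat protein of vesicles leaving the endoplasmic reticulum (0.85), and Ugcg, which makes glucosylceramide (0.68). Igk, rows of the immunoglobulin kappa locus that can share signal with related segments, was at 6.57, 6.69 and 6.67 against 6.25, 5.50 and 5.57 (0.87). All 12 had a limma adjusted p of 0.711. Over the processing alternatives run, differences went as low as 0.07 for Obi1, 0.0074 for Ube2j2 and 0.02 for Plaat3.

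Genes on the lower side were chosen by the same rule, which fixed their separation as well. Msc, a basic helix-loop-helix transcription factor gene also called musculin, was at 3.64, 3.28 and 3.61 in knockout and 4.48, 4.42 and 4.41 in floxed arrays (difference -0.93, 95% interval -1.27 to -0.59, adjusted p = 0.573). Kcnc4, a voltage-gated potassium channel gene, was at 4.83, 4.10 and 4.18 against 5.79, 5.86 and 5.32 (-1.29). H2-Q3, a nonclassical MHC class I gene whose rows can share signal with close relatives, was at 6.44, 6.28 and 6.30 against 6.90, 6.95 and 6.91 (-0.58). Without knockout array 1 and floxed array 2 the difference of Msc was -0.999 and that of Kcnc4 -1.42, both larger than with all arrays. With gene values from exon-region rows alone, leaving out junctions, the difference of Msc was -0.27 and that of Kcnc4 turned to 0.03. Wfdc3 (-0.70), Nt5dc2 (-0.62), Brd3os (-0.70), the ADP-ribosyltransferase gene Art1 (-0.92), the tumour suppressor gene Rassf1 (-0.58) and Jph3, which couples membranes in excitable cells (-0.58), had an adjusted p of 0.711, as had Wnt7b, Calcb and Sct, which are described with their groups below. Over the processing alternatives run, the difference of H2-Q3 ranged from -0.63 to -0.09 and that of Art1 from -0.999 to -0.06. Those of Nt5dc2 and Rassf1 ranged from -0.70 to -0.15 and from -0.66 to -0.14. The smallest p of all belonged to an uncharacterised gene, 1700022H01Rik, which was singled out after its values had been seen. It was at 2.86, 3.74 and 2.96 in knockout and 5.24, 5.33 and 5.001 in floxed arrays, a difference of -2.00 (95% interval -2.68 to -1.32, 4.01-fold lower, adjusted p = 0.5505), from 3 array rows.

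**Figure D2:**
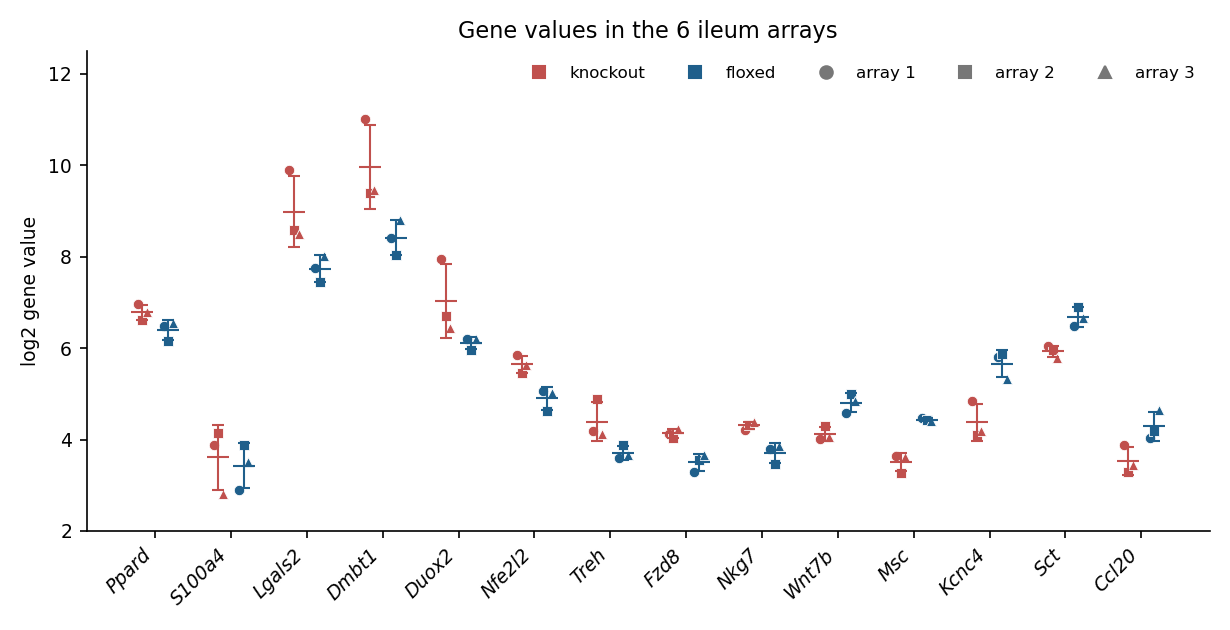
Log2 values of 14 genes in the 6 ileum arrays, with knockout arrays in red, floxed arrays in blue, marker shapes for array numbers, and bars for the mean ± SD of 3 arrays. All genes but S100a4 have separated groups, and knockout array 1 is the highest for Lgals2, Dmbt1 and Duox2.

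Among bright genes, with a mean of at least 5 over the 6 arrays, and leaving out predicted genes and receptor segments, the 8 largest separated differences were those of Dmbt1, Spink4, C1galt1, Txn1, Lgals2, Psmb1, Agr2 and Ms4a18. Dmbt1, a scavenger receptor protein of mucus that binds bacteria, was at 11.01, 9.38 and 9.46 in knockout and 8.41, 8.04 and 8.80 in floxed arrays (difference 1.54, 95% interval 0.35 to 2.72). C1galt1, the enzyme that extends O-linked sugars of mucins, was at 6.52, 5.35 and 5.52 against 4.40, 4.25 and 4.96 (1.26). Knockout array 1 was the highest array for both, and without it the differences were 1.01 and 0.90. Ms4a18 had a difference of 1.24. On the lower side were Kcnc4, Sct, the telomerase RNA Terc (-0.69), Olig1 (-0.72), Gprin1 (-0.73), Itprip (-0.70) and Taco1os (-0.74, but 0.02 from exon-region rows alone).

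Digestive enzymes and absorptive functions of enterocytes leaned upward, with few separated genes. Of 19 brush border genes 14 had a positive difference (median 0.41) and 2 were separated. The brightest 6255 genes held 16 of the 19, and 64.9% of them had a positive difference and 9.32% were separated upward. Treh, the brush border enzyme that splits trehalose, was at 4.18, 4.88 and 4.12 in knockout and 3.59, 3.88 and 3.66 in floxed arrays (difference 0.68). This value did not rest on the arrays that stood apart, since it was 0.88 without both of them. Ace, the peptidase that converts angiotensin, was at 6.82, 6.38 and 6.26 against 5.99, 5.69 and 6.21 (0.52) and had 0.22 without both. The aminopeptidase Anpep and the disaccharidase Sis had differences of 0.49 and 0.48, with overlapping arrays. The list median became 0.23 without knockout array 1, 0.06 without floxed array 2 and -0.05 without both, so it moved most with floxed array 2.

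Of 18 transporters of sugars, peptides and amino acids 15 had a positive difference (median 0.25) and 3 were separated upward. The brightest 6255 genes held 12 of the 18, and 64.9% of them had a positive difference and 9.32% were separated upward. Slc3a1, the heavy subunit of the cystine transporter, was at 7.95, 7.09 and 7.16 in knockout and 6.93, 6.24 and 6.85 in floxed arrays (0.73), and the glutamate transporter gene Slc1a1 was at 5.86, 5.21 and 5.43 against 5.20, 4.36 and 5.11 (0.61). The proline transporter gene Slc6a20a was also separated (0.28), while the glucose transporter Slc5a1 (0.30) and the peptide transporter Slc15a1 (0.59) overlapped. The list median was 0.17 without floxed array 2 and 0.06 without both arrays.

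Bile acid handling, the function that marks the ileum, had a positive difference in 13 of 14 genes (median 0.22), and none of the 13 was separated. Slc10a2, which takes bile acids up from the gut, was at 8.1996, 7.09 and 6.98 in knockout and 7.11, 6.16 and 7.01 in floxed arrays (0.66), and Fgf15, the hormone that ileal enterocytes release in response to bile acids, at 3.41, 5.58 and 4.01 against 4.37, 4.63 and 3.27 (0.24). Both overlapped, and the Fgf15 arrays spread by more than their group difference. The single separated gene was Gata4, a transcription factor gene that marks the proximal small intestine, at 4.13, 4.63 and 4.54 against 4.66, 5.16 and 4.78 (-0.43). The list median was 0.37 without floxed array 1, 0.13 without floxed array 2, 0.36 without knockout array 3 and -0.03 without knockout array 1 and floxed array 2. Fat handling genes had a positive difference in 12 of 19 cases (median 0.20, and 0.33 without floxed array 1, 0.08 without floxed array 2 and 0.01 without both arrays that stood apart) and 0 were separated. Among them the lipid transfer protein gene Mttp was at 6.94, 6.63 and 6.41 in knockout and 6.69, 5.56 and 6.33 in floxed arrays (0.46).

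Junction and adhesion genes had 15 of 17 positive differences and a median of 0.37, and the median was 0.15 without both arrays. The brightest 6255 genes held 15 of the 17. Of those bright genes 64.9% had a positive difference, 9.32% were separated upward and 4.97% downward. Separated upward were the cadherin gene Cdh17 (0.94), the desmosome genes Dsg2 (0.49) and Jup (0.41) and the tight junction scaffold gene Tjp3 (0.38). Separated downward were Marveld2, the tricellulin of junctions where 3 cells meet (-0.29, but 0.09 from exon-region rows alone), and Cldn7 (-0.14, but 0.01 with the mean over rows). Cdh17 was at 8.78, 7.58 and 7.51 in knockout and 7.43, 6.29 and 7.33 in floxed arrays, and its difference was 0.17 without both arrays.

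Goblet cell genes had a positive difference in 18 of 20 cases (median 0.36), and 8 of 20 were separated upward and 0 downward, against 9.32% and 4.97% of the brightest 6255 genes. Spink4, a protease inhibitor of goblet cells, was at 11.1, 10.2 and 9.88 in knockout and 9.40, 7.85 and 9.79 in floxed arrays (1.35). Agr2, which folds mucins in the endoplasmic reticulum, was at 9.85, 8.26 and 8.37 against 7.81, 7.11 and 7.83 (1.24). Klk1, a tissue kallikrein, was at 7.13, 6.37 and 6.39 against 5.87, 5.69 and 5.82 (0.84), and the mucin gene Muc2 at 10.04, 9.74 and 9.26 against 9.16, 8.62 and 9.18 (0.69). In the fate regulators of the lineage the groups overlapped, with a difference of 0.15 for Atoh1 and -0.07 for Spdef. The list median was 0.18 without knockout array 1 and 0.18 without both arrays.

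Paneth cell products had a positive difference in 15 of 16 genes (median 0.99), the largest median of the 44 lists, and 0 of 16 were separated. The order of the arrays was alike across them. The mean of the 16 genes was 7.78, 5.41 and 6.23 in knockout arrays 1 to 3 and 6.12, 5.03 and 5.44 in floxed arrays 1 to 3, so knockout array 1 was far above all others and knockout array 2 lay below 2 of the 3 floxed arrays. Lyz1, the Paneth cell lysozyme, was at 9.59, 6.74 and 7.94 in knockout and 7.57, 6.21 and 6.30 in floxed arrays (1.40, adjusted p = 0.711). The defensin genes of the list (0.66 to 1.05) are near-identical copies, and single members are uncertain. The list median was 0.27 without knockout array 1, 1.57 without knockout array 2, 0.67 without floxed array 2 and 0.07 without both arrays that stood apart. Reg lectins, bactericidal proteins of the epithelium, had 6 of 7 positive differences (median 0.34). In Reg3a, knockout array 1 was at 8.88 and the other 5 arrays between 4.80 and 6.04. The Reg median was 0.21 without knockout array 1, without knockout array 2 it was 0.56, without floxed array 3 it was 0.20 and without knockout array 1 and floxed array 2 it was 0.18.

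Enteroendocrine genes were split. Sct, the hormone secretin, was at 6.03, 5.96 and 5.79 in knockout and 6.48, 6.91 and 6.65 in floxed arrays (difference -0.75, 95% interval -1.14 to -0.35). From exon-region rows alone the direction of Sct turned, to 0.36. Calcb, a calcitonin gene-related peptide, was at 3.01, 3.11 and 3.30 against 3.61, 3.93 and 4.08 (-0.74). Sst, the hormone somatostatin, was separated upward at 6.39, 5.49 and 5.79 against 5.37, 5.19 and 5.39 (0.57). The differences without both arrays were -0.68, -0.64 and 0.26, and the pan-endocrine marker Chga was at 5.52, 5.52 and 5.47 against 5.63, 5.49 and 5.46 (-0.02). Over the list 13 of 20 genes had a positive difference, with a median of 0.09. Tuft cell genes had a negative difference in 11 of 14 cases (median -0.12), with Ltc4s, which makes leukotriene C4, separated downward (-0.38), while Dclk1 (-0.20) and Pou2f3 (-0.07) overlapped. Without both arrays 7 of 14 tuft genes were positive and the median was -0.00057.

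**Figure D3:**
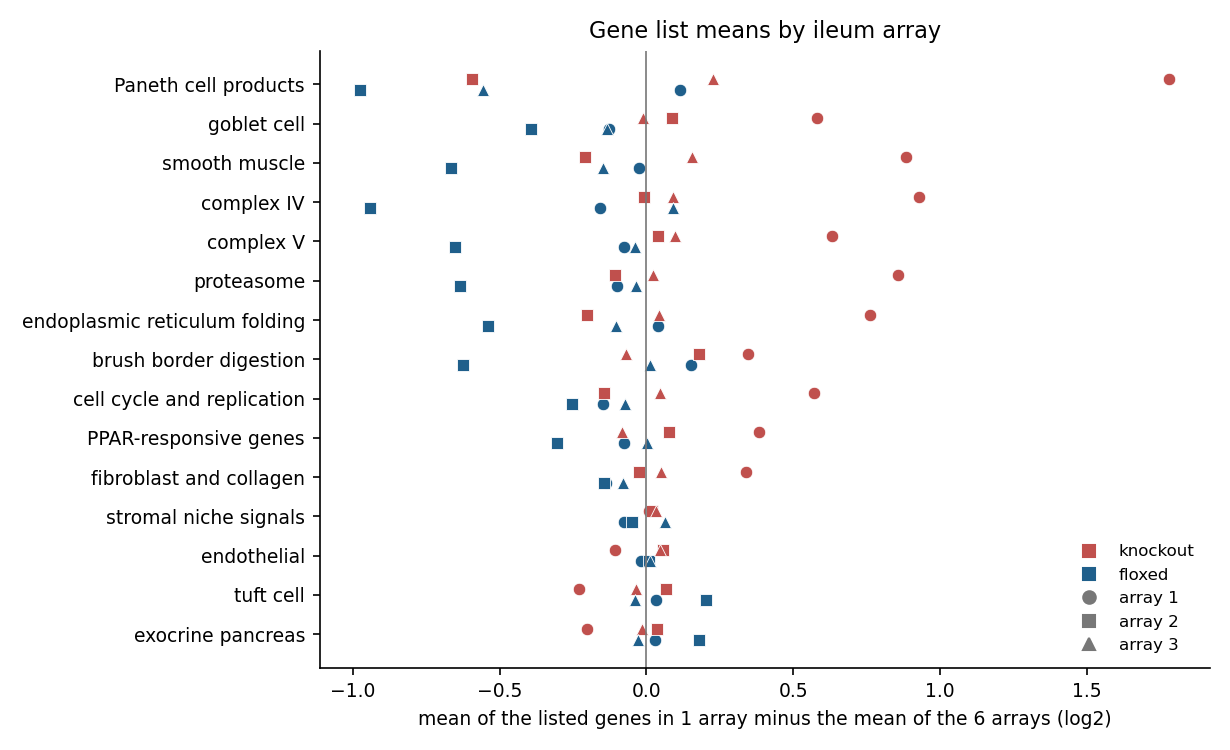
Mean log2 value of 15 gene lists in each ileum array, as the difference from the mean of the 6 arrays, with knockout in red, floxed in blue and marker shapes for array numbers. Knockout array 1 is the highest and floxed array 2 the lowest array for most lists, and the order is turned for tuft cell and exocrine pancreas genes.

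Crypt stem cell and Wnt target genes had 11 of 19 positive differences (median 0.04), and stem cell genes proper overlapped. Lgr5, the receptor that marks crypt base stem cells, was at 3.27, 2.89 and 3.14 in knockout and 3.07, 2.79 and 2.69 in floxed arrays (0.25), and Axin2 had a difference of -0.12. Olfm4, a secreted protein of crypt base cells, was separated upward at 6.19, 5.16 and 5.30 against 5.13, 4.90 and 4.61 (0.67, and 0.36 without both arrays). Ephb3, a receptor that positions crypt cells, was separated downward (-0.22). Among Wnt ligands and frizzled receptors, 2 of 21 genes were separated in each direction, against 5.06% of all genes upward and 5.95% downward. Wnt7b was at 4.02, 4.29 and 4.05 in knockout and 4.59, 4.99 and 4.85 in floxed arrays (-0.69, 95% interval -0.99 to -0.39). Wnt3, the ligand that Paneth cells make, was at 4.21, 4.35 and 4.44 against 5.15, 4.81 and 4.51 (-0.49). Separated upward were the receptor genes Fzd5, at 6.66, 6.77 and 6.78 against 6.30, 6.08 and 6.35 (0.49), and Fzd8, at 4.13, 4.04 and 4.24 against 3.30, 3.54 and 3.66 (0.64). Without knockout array 1 and floxed array 2 Wnt7b was at -0.55, Fzd5 at 0.45 and Fzd8 at 0.66. Over the processing alternatives run, Wnt7b ranged from -0.80 to -0.39, Fzd5 from 0.04 to 0.54 and Fzd8 from 0.07 to 0.91. Over the list 8 of 21 genes were positive and the median was -0.09.

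Cell cycle and replication genes had a positive difference in 21 of 25 cases (median 0.32). Separated upward were 7 of 25 and downward 0, against 5.06% and 5.95% of all genes. Rrm1, a subunit of ribonucleotide reductase, was at 4.22, 3.16 and 3.37 in knockout and 2.92, 2.98 and 2.83 in floxed arrays (0.67), and Mcm5 of the replicative helicase at 5.21, 4.35 and 4.39 against 4.07, 3.81 and 4.32 (0.58). Mki67, which marks cycling cells, was at 5.86, 3.52 and 4.34 against 4.21, 3.61 and 3.72 (0.73), so that knockout array 2 was the lowest of all 6. The list median was 0.10 and the difference of Mki67 0.08 when knockout array 1 was left out. In bulk tissue, fewer cells of a type and less RNA per cell cannot be told apart.

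Stroma, the compartment named by the Cre, held separated genes of matrix. Of 21 fibroblast and collagen genes 16 had a positive difference (median 0.18). Separated upward were 5 of 21 and downward 0, against 5.06% and 5.95% of all genes. Of the 21 genes 12 were among the brightest 6255, where 9.32% were separated upward and 4.97% downward. The median difference of those bright genes was 0.12. Fn1, the matrix protein fibronectin, was at 6.42, 5.67 and 5.94 in knockout and 5.59, 5.40 and 5.57 in floxed arrays (0.49), and Fbln1, a fibulin of elastic matrix, at 6.14, 5.78 and 5.63 against 5.61, 5.34 and 5.31 (0.43). The collagen genes Col6a3 (0.31), Col1a2 (0.22) and Col3a1 (0.13) were separated with smaller differences, while Col1a1 (0.14), Pdgfra (0.32) and Vim (0.37) overlapped. The list mean of floxed array 2 was 5.01, close to 5.02 and 5.08 in the other floxed arrays, while knockout arrays 1 to 3 had 5.50, 5.13 and 5.21. The median was 0.11 without knockout array 1 and 0.12 without both, when 18 of 21 genes were positive.

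Niche signals of the stroma had 11 of 20 positive differences and a median of 0.08. With the mean over rows 5 of 20 were positive and the median was -0.06, and from exon-region rows alone 8 of 20 and -0.10. Bmp4, a ligand that restrains crypt growth, was at 4.36, 4.32 and 4.55 in knockout and 4.62, 4.76 and 4.62 in floxed arrays (-0.26). Gli1, a target and effector of hedgehog signals from the epithelium, was at 4.43, 4.47 and 4.53 against 4.61, 4.69 and 4.84 (-0.24), while Hhip, a hedgehog antagonist, was separated upward at 3.85, 3.76 and 3.68 against 3.37, 3.42 and 3.63 (0.29). Grem1, an antagonist of BMPs, spread widely within both groups, at 5.56, 3.38 and 4.48 against 4.39, 2.66 and 4.19. Its difference went from 0.73 to -0.36 without knockout array 1 and floxed array 2.

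Smooth muscle genes had a positive difference in 12 of 12 cases (median 0.53), and 0 of 12 were separated. The list mean was 6.57, 5.48 and 5.84 in knockout and 5.66, 5.02 and 5.54 in floxed arrays, and Acta2, smooth muscle actin, was at 8.59, 6.60 and 7.33 against 6.71, 5.92 and 6.73 (1.05). The median was 0.27 without knockout array 1 and 0.09 without both arrays. Endothelial genes had 7 of 14 positive differences and a median of -0.01, with Pecam1 separated upward (0.21) and Tie1 downward (-0.22). Neuronal and glial genes had 5 of 12, a median of -0.11 and 0 separated genes.

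Counts of separated members varied between the immune lists, while over all genes 5.06% were separated upward and 5.95% downward. T cell and intraepithelial lymphocyte genes had 9 of 19 positive differences (median -0.06). Nkg7, a granule protein of cytotoxic lymphocytes, was the single separated gene, at 4.22, 4.31 and 4.39 in knockout and 3.79, 3.45 and 3.86 in floxed arrays (0.60, and 0.52 without both arrays), while Cd3e (-0.11) and Cd8a (-0.10) overlapped. Over the processing alternatives run, the Nkg7 difference ranged from 0.08 to 0.68. B and plasma cell genes had 5 of 17 positive differences, with 2 genes separated in each direction. Their median was -0.18, and it was -0.11 without floxed array 1, -0.12 without knockout array 1 and -0.22 without both arrays that stood apart. Tnfrsf13b, a receptor for B cell survival factors, was at 4.37, 4.67 and 4.50 against 4.81, 5.10 and 4.83 (-0.40), and Prdm1, a regulator of plasma cells, at 4.28, 4.24 and 4.10 against 3.76, 3.81 and 3.98 (0.36, but -0.05 with the mean over rows). Jchain, the joining chain of secreted antibodies, was at 7.13 in knockout array 1 and between 3.49 and 4.13 in the other 5 arrays, and its difference of 1.30 became 0.24 without that array. Mast cell and granulocyte genes had 7 of 17 positive differences (median -0.09, and -0.06 without both arrays). Separated upward were the neutrophil genes Ly6g (0.80) and S100a9 (0.18). Downward 3 were separated, the mast cell protease gene Mcpt4 (-0.47), Gata2 (-0.37) and the neutrophil elastase gene Elane (-0.25). The Mcpt4 difference ranged from -0.60 to -0.0041 over the processing alternatives run.

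Of 18 macrophage and dendritic cell genes 9 had a positive difference (median 0.02), and 2 were separated upward and 1 downward. The Fc receptor gene Fcgr1 had a difference of -0.15. The complement gene C1qc was at 5.02, 5.18 and 4.97 in knockout and 4.48, 4.61 and 4.64 in floxed arrays (0.47), and the lysosomal marker Cd68 at 4.61, 3.98 and 4.23 against 3.70, 3.88 and 3.79 (0.48), while Adgre1 (0.08) and Csf1r (0.30) overlapped. MHC class II genes had 7 of 10 positive differences, with 1 gene separated in each direction. Their median went from 0.20 to -0.04 without knockout array 1 and to 0.32 without knockout array 2. Interferon-induced genes had 14 of 21 (median 0.08), and the median ranged from 0.20 without knockout array 3 to -0.01 without knockout array 1 and floxed array 2. Cytokines and chemokines had 9 of 21 (median -0.03) and 3 separated downward. Ccl20, the epithelial chemokine that draws cells to lymphoid follicles, was at 3.88, 3.29 and 3.44 against 4.04, 4.19 and 4.65 (-0.76, and -0.98 without both arrays), and Cxcl2, which draws neutrophils, at 4.25, 4.38 and 4.47 against 4.52, 4.86 and 4.66 (-0.31). The difference of Ccl20 ranged from -0.98 to -0.09 over the processing alternatives run, and that of Cxcl2 from -0.39 to -0.08. Il1b (-0.04), Tnf (0.03) and Il6 (-0.12) overlapped.

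Mitochondrial respiration genes were nearly all on the positive side. The differences were positive in 26 of 27 genes of complex I (median 0.51, 6 separated), 11 of 13 of complexes II and III (0.42, 0 separated), 11 of 11 of complex IV (0.73, 4 separated) and 15 of 15 of complex V (0.52, 5 separated). None of the 66 genes was separated downward. Cox5b, a nuclear-encoded subunit of cytochrome oxidase, was at 9.54, 8.04 and 8.21 in knockout and 7.71, 7.12 and 8.04 in floxed arrays (0.97). Cox6a1 had small spread among knockout arrays, at 9.04, 9.12 and 9.11 against 8.74, 8.21 and 8.91 (0.47), and Atp5g2, a subunit of the membrane ring of ATP synthase, was at 8.33, 7.85 and 7.77 against 7.27, 6.90 and 7.51 (0.76). Ndufv1, which takes electrons from NADH, was at 6.04, 5.98 and 5.95 against 5.67, 5.63 and 5.59 (0.36). Of the 4 lists 21, 10, 11 and 14 genes were among the brightest 6255, where the median of all genes was 0.12. In that bright set 64.9% had a positive difference, 9.32% were separated upward and 4.97% downward. Without knockout array 1 the 4 medians were 0.24, 0.28, 0.43 and 0.33, without floxed array 2 they were 0.33, 0.27, 0.43 and 0.28, and without both they were 0.08, 0.12, 0.12 and 0.05.

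The promoters of respiration genes were searched because their members lay on the same side. NRF1, a transcription factor known for driving nuclear-encoded respiration genes, binds a site searched here as GCGCA, 1 base of any kind and GCGC, on both strands of the 250 bases before the gene start, in the RefSeq promoter table of build GRCm38.p6. It was found in 10 of the 55 listed genes with a promoter in the table (18.2%), against 4.23% of the 27025 genes searched. The match is a description of letters, not a bound site, and no motif was tested against expression. The stretches below, 5′ to 3′ on the strand of the gene with the match in capitals, show it in a separated gene each of complexes IV and V and in Sdha of complex II, whose arrays overlapped (5.95, 5.29 and 5.31 against 4.78, 4.60 and 5.36). Their positions are chr5:115349086-115349145, chr15:102671055-102671114 and chr13:74350304-74350363, each on the minus strand and upstream of the start.
Cox6a1: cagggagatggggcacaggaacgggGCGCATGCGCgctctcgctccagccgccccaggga
Atp5g2: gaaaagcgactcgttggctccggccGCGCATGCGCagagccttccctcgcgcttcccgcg
Sdha: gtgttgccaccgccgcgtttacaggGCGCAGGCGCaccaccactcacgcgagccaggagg

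Glycolysis genes had a positive difference in 13 of 13 cases (median 0.35, 5 separated). The brightest 6255 genes held 12 of these 13 and 12 of the 16 cholesterol genes below. Of those bright genes 64.9% had a positive difference and 9.32% were separated upward. Ldha, which makes lactate, was at 7.70, 6.54 and 6.54 in knockout and 6.46, 5.46 and 6.26 in floxed arrays (0.87), and Gpi1 at 7.84, 7.04 and 7.17 against 6.88, 6.11 and 6.81 (0.75). Cholesterol synthesis genes had 15 of 16 (median 0.22, 4 separated), with Idi1, an early enzyme of the isoprenoid branch, at 3.84, 3.08 and 3.34 against 2.80, 2.29 and 2.59 (0.86, and 0.52 without both arrays). The glycolysis median was 0.22 without knockout array 1, 0.59 without knockout array 2, 0.22 without floxed array 2 and 0.09 without both arrays that stood apart, and the cholesterol median 0.14 without floxed array 2 and 0.01 without both.

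Nfe2l2, the transcription factor NRF2 that drives antioxidant genes, was at 5.84, 5.46 and 5.62 in knockout and 5.07, 4.62 and 5.02 in floxed arrays (0.74, and 0.50 without both arrays). Txn1, thioredoxin, was at 9.004, 7.61 and 7.60 against 7.24, 6.08 and 7.15 (1.25, and 0.41 without both arrays). The widely used NRF2 reporters overlapped, with Nqo1 at 3.798, 2.70 and 3.50 against 3.14, 3.19 and 3.09 (0.19), Gclc at a difference of 0.40 and Hmox1 at -0.23. The list had 17 of 22 positive differences and a median of 0.26, which was 0.08 without knockout array 1, 0.41 without knockout array 2, 0.16 without floxed array 2 and -0.03 without knockout array 1 and floxed array 2. The core of the antioxidant response element, TGACNNNGC on either strand, was found upstream of 4 of 17 listed genes with a promoter in the table (23.5%), against 11.5% of all. One of the 4 was Nfe2l2 itself, shown because it was the separated regulator of the list, at chr2:75704870-75704913 on the minus strand with the match in capitals.
Nfe2l2: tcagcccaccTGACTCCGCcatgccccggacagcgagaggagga

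Of 14 enzymes and cofactors that make oxidants 3 were separated upward and 1 downward, against 5.06% and 5.95% of all genes. Duox2, the oxidase with which enterocytes release hydrogen peroxide to the lumen, was at 7.95, 6.71 and 6.44 in knockout and 6.19, 5.96 and 6.19 in floxed arrays (0.92, 95% interval 0.24 to 1.59). Duoxa2, the factor that carries Duox2 to the membrane, was at 7.36, 6.00 and 6.02 against 5.61, 5.55 and 5.67 (0.85). Both partners were separated, and without knockout array 1 their differences were 0.46 and 0.40. The paralogues Duox1 (0.03) and Duoxa1 (0.01) overlapped. Noxa1, an activator of the oxidase Nox1, was separated downward at 5.17, 5.07 and 5.15 against 5.66, 5.32 and 5.46 (-0.35), and the phagocyte oxidase gene Cybb overlapped (0.05).

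All 24 proteasome genes had a positive difference (median 0.48) and 4 were separated, among them Psmb1 (1.25), Psma2 (1.02) and Psmb3 (0.74). The brightest 6255 genes held 14 of the 24, and 9.32% of them were separated upward and 64.9% had a positive difference. Psmb1, a subunit of the core, was at 6.91, 5.69 and 5.54 in knockout and 5.36, 3.63 and 5.42 in floxed arrays, so floxed array 2 lay far below the others, and the difference without both arrays was 0.23. The median of the 24 genes was 0.19 without knockout array 1, 0.30 without floxed array 2 and 0.01 without both. Folding genes of the endoplasmic reticulum had 17 of 20 positive differences (median 0.41), with Dnajb9, a co-chaperone, at 4.73, 4.07 and 4.70 against 3.99, 3.18 and 3.70 (0.88) and Sdf2l1, another chaperone partner, separated downward at 5.98, 5.96 and 5.96 against 6.13, 6.31 and 6.29 (-0.28, but 0.20 from exon-region rows alone). Their median was 0.09 without knockout array 1, 0.69 without knockout array 2, 0.18 without floxed array 2 and -0.12 without both arrays that stood apart. Cytosolic ribosomal protein genes had 11 of 16 (median 0.26, and 0.15, 0.13 and 0.07 without knockout array 1, floxed array 2 and both), with Rpl7 at a difference of 0.93.

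Lists of tissues other than ileal mucosa had medians close to 0. Exocrine pancreas genes had a positive difference in 2 of 14 cases (median -0.11), hepatocyte genes in 4 of 13 (-0.08), skeletal muscle genes in 2 of 13 (-0.10) and red blood cell genes in 2 of 5 (-0.05), while adipocyte genes had 6 of 10 (0.02) and colonocyte genes 6 of 14 (-0.03). Separated downward were 2 of 14, 0 of 13, 2 of 13, 1 of 5, 1 of 10 and 2 of 14 genes in this order. Upward 0 were separated in each list. Over all genes 5.95% were separated downward and 5.06% upward. The defining genes Alb (2.31 to 2.96 over the 6 arrays) and Prss2 (2.92 to 3.52) lay among the dim genes, with overlapping groups. None of the 14 pancreas genes was among the brightest 6255, where positive differences gathered. Without knockout array 1 and floxed array 2 the medians were 0.03, 0.02, -0.0045 and 0.20 for the first 4 of these lists. Whether brightness or array background played a part in these lists was not tested. With background as a covariate, which extrapolates because the groups do not overlap in it, 39 of the 44 list medians changed sign. With array weights the complex IV median was 0.41 in place of 0.73, and that of brush border genes 0.20 in place of 0.41.

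**Figure D4:**
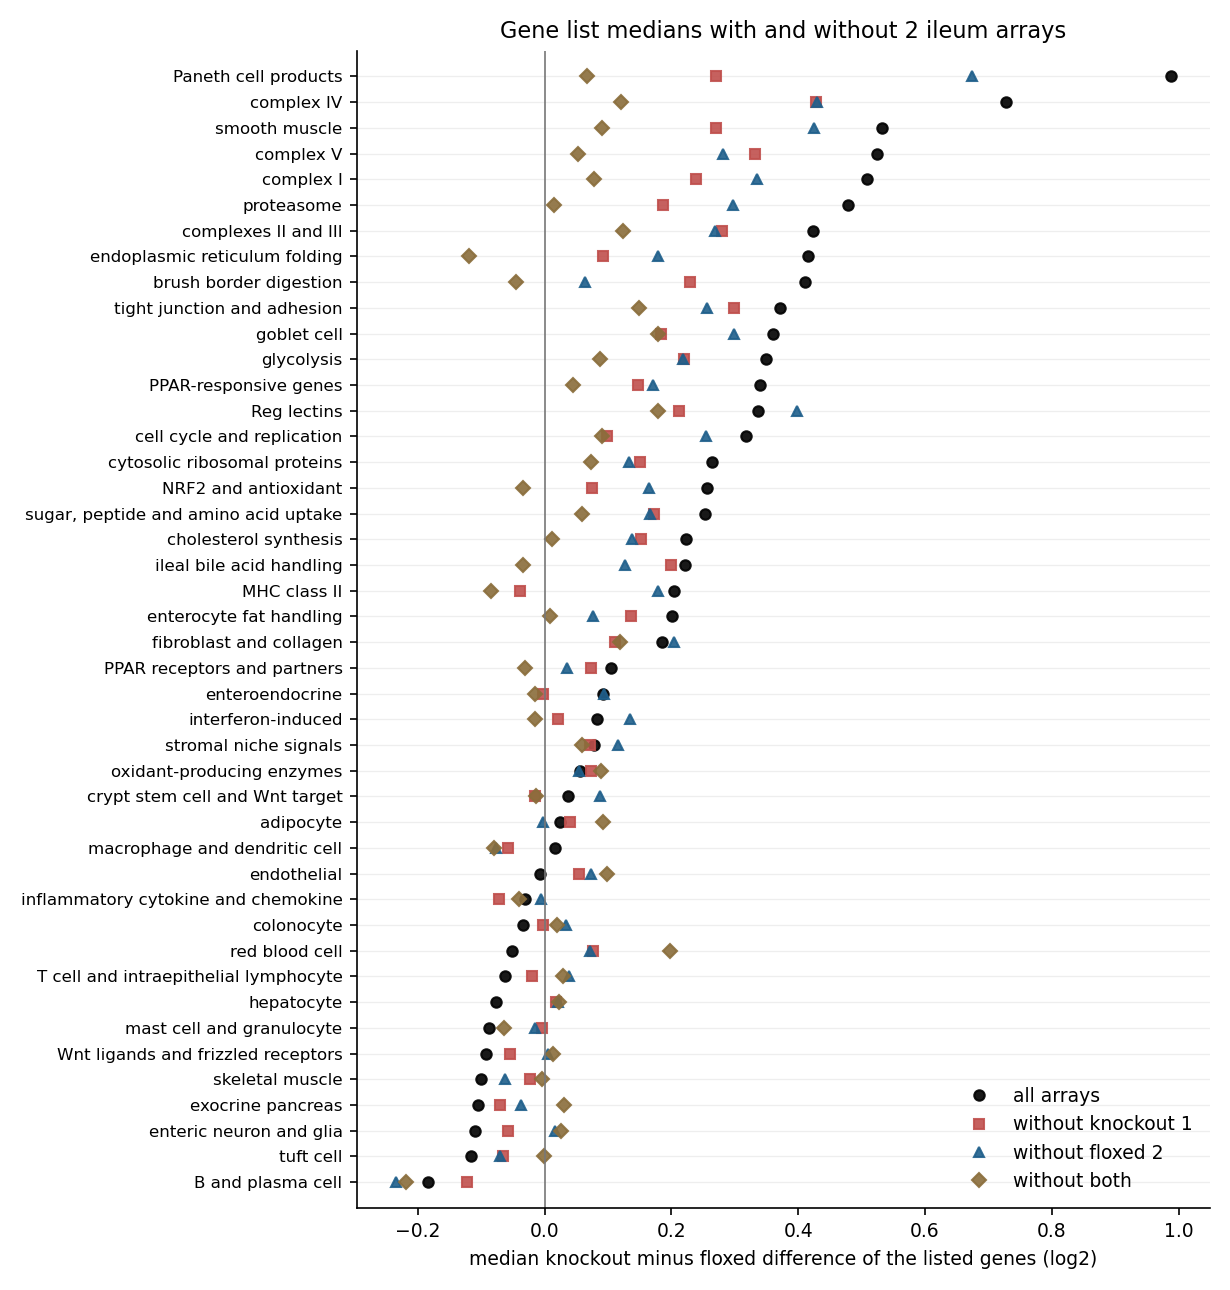
Median knockout minus floxed difference (log2) of the genes of 44 lists, with all arrays (black circles), without knockout array 1 (red squares), without floxed array 2 (blue triangles) and without both (brown diamonds). Paneth cell products go from 0.99 to 0.07 and complex IV from 0.73 to 0.12 when both arrays are left out, while B and plasma cell genes stay between -0.12 and -0.23.

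Single exon and junction rows were tested because a gene's median can hide a few exons. Limma called 0 of 719071 rows (0%), with a smallest adjusted p of 0.6839 and 52406 rows (7.29%) at an unadjusted p under 0.05. The share was 6.06% of 437027 exon regions and 9.19% of 282044 junctions. Rows with separated arrays were lower in the knockout in 7.44% and higher in 5.03% of all rows.

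The same genotypes were compared in the colon. There limma called 0 genes, and 1494 (4.78%) had an unadjusted p under 0.05. The test of the difference between the tissues, the interaction of genotype and tissue, called 0 of 31276 genes, with 775 (2.48%) at an unadjusted p under 0.05. This fit took ileum and colon arrays as independent, and the labels do not say whether same-numbered ones share a mouse. Deviations from group means of same-numbered ileum and colon arrays correlated at 0.53, -0.05 and 0.22 in knockout arrays 1 to 3. In floxed arrays 1 to 3 they correlated at 0.26, 0.10 and -0.13. Goblet cell genes had a median of 0.36 in ileum and 0.41 in colon, where 19 of 20 were positive against 49% of all genes. Complex V genes had 0.52 and 0.46. Of these lists 12 of 20 and 14 of 15 genes were among the brightest 6255, whose colon median was 0.18. The GC-rich background was lower in knockout colon too, at 6.52 ± 0.22 against 6.80 ± 0.19 (mean ± SD, n = 3 arrays each), with overlapping arrays. Whether brightness or background played a part in the colon was not tested. For Paneth cell products the medians were 0.99 and 0.05, and for smooth muscle 0.53 and 0.20, and 0 genes of either list were called in the interaction. Paneth cell genes had less signal in colon, with Lyz1 at 4.45 in knockout and 4.65 in floxed colon against 8.09 and 6.69 in ileum. Itln1 was at 4.03 and 3.43 against 5.85 and 4.64. For these 2 genes the tissues were not compared at like signal. Differences of Duox2 were 0.92 in ileum and 0.23 in colon (95% interval -0.44 to 0.91), of Sct -0.75 and -0.25, and of Dmbt1 1.54 and 1.14. Of the genes that the naming rule allows, the smallest interaction p belonged to Calcb (0.0001498, adjusted 0.9999), followed by Mtif3, a mitochondrial translation factor gene (0.0004913), Lgals2 (0.001008) and Rasl11a (0.001343). Uncharacterised genes, which the rule leaves out, lay between them, among them 1700022H01Rik (0.0002551). The ileum difference of Mtif3 was -0.54, but 0.04 from exon-region rows alone. Rasl11a had a difference of 0.09 in ileum (-0.13 with the mean over rows) and -0.71 in colon.

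**Figure D5:**
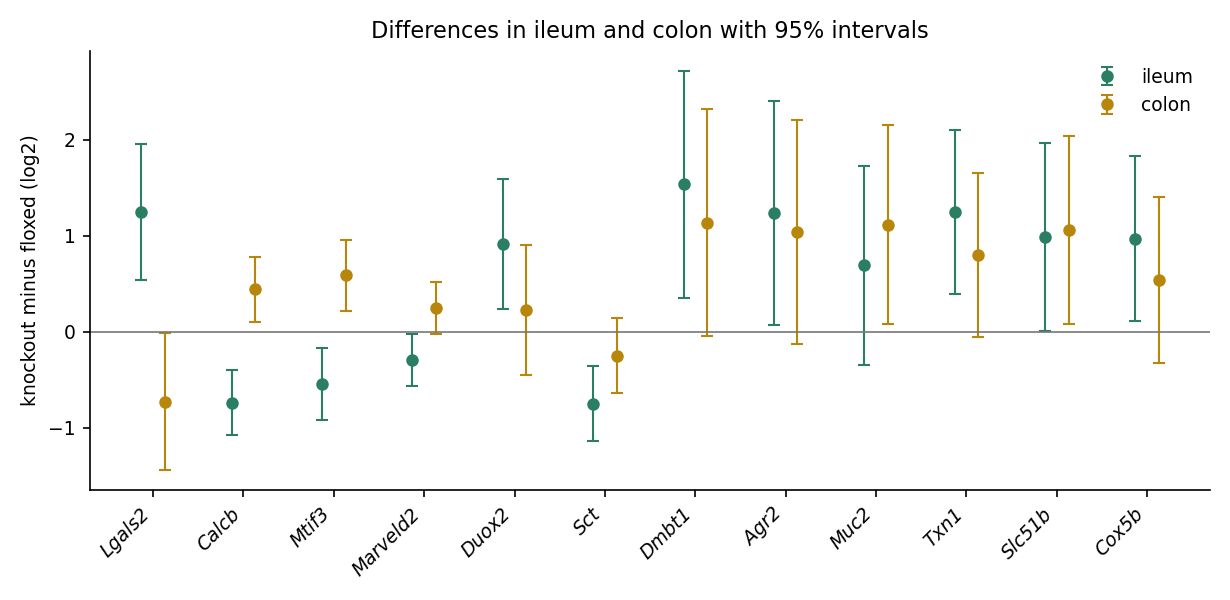
Knockout minus floxed difference (log2) of 12 genes in ileum (green) and colon (gold), as points with the 95% interval of the limma fit. Lgals2, Calcb, Mtif3 and Marveld2 have opposite signs in the 2 tissues, while Dmbt1, Agr2, Muc2, Txn1, Slc51b and Cox5b are positive in both.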

How the data were processed

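The authors deposited log2 expression values of 725678 array rows. RMA and Partek are named in the submitters' processing notes, and their versions and roles are not given in the sources used here. No further normalization was applied. Rows were named through the platform annotation, and 580167 rows with exactly 1 symbol entered gene values, each the median over a gene's rows in an array (31276 genes). Group means were estimated with limma 3.58.1 (R 4.3.3) over the 12 arrays together, with two-sided p-values adjusted by the Benjamini-Hochberg method over all genes or rows and called at 0.05. Separated arrays means that the 3 arrays of each group do not overlap. The 44 gene lists (769 genes, of which 49 were not used) were described by counts and medians and not tested, and members and lists were chosen with earlier results of these data known. Genes were named by a rule: Ppard and S100a4, the 12 separated genes of smallest p and the 8 of largest difference in each direction, list leads, up to 2 separated members of each list per direction, and the 4 of smallest interaction p, leaving out predicted genes and receptor segments. Other list members and 1700022H01Rik were named after their values had been seen. Array background is the mean of background rows with 15 to 25 G or C bases. The number of arrays limits the precision. Same-numbered ileum arrays of the 2 genotypes had deviations that correlated at 0.33, 0.38 and -0.18, so numbers were not used as pairs. Promoters were searched with Python.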

Additional observations from a re-analysis of the deposited data

Results flagged for a closer look

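In 4 genes that the naming rule gave, all knockout arrays lay on one side of the floxed arrays in the ileum and on the other side in the colon. The interaction test, which sets the ileum difference against the colon difference, gave 1.97 on the log2 scale for Lgals2 (1.25 in ileum, -0.72 in colon), -1.18 for Calcb (-0.74 and 0.44), -1.13 for Mtif3 (-0.54 and 0.59) and -0.55 for Marveld2 (-0.29 and 0.25). None passed it, with a limma adjusted p of 0.9999 for each. From exon-region rows alone the ileum difference turned for Mtif3 (0.04) and Marveld2 (0.09). Of 31276 genes 60 (0.192%) had opposite separated arrays in this way. More genes were separated in the same direction in both tissues, 128 upward and 178 downward. Lgals2 had colon means of 3.14 in knockout and 3.86 in floxed mucosa, against 8.99 and 7.74 in ileum. Groups of 3 arrays are too small to test single arrays as outliers.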

How the results depend on the processing

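In limma, 0 genes were called higher or lower in the ileum and 0 in the interaction under the alternatives run, with 1 exception. With the replicate number as a block, 1 lower gene was called, 1700022H01Rik (-2.00, adjusted p 0.01965), and 2481 higher genes had an unadjusted p under 0.05 in place of 1131. Same-numbered ileum arrays correlated at 0.33, 0.38 and -0.18. Ileum knockout arrays 1 and 2 and the 3 colon knockout arrays (0.31, 0.07 and 0.26) correlated best with the floxed array of their own number, and ileum knockout array 3 with floxed array 2 (0.23). Leaving out 1 ileum array gave 452 to 2182 higher and 472 to 1425 lower genes at that unadjusted p, and leaving out knockout 1 and floxed 2, added after seeing the data, 519 and 372. A mean of at least 5 left 6618 genes with 387 and 163. For the interaction (388 higher and 387 lower at an unadjusted p under 0.05) leaving out 1 array gave 307 to 614 higher and 307 to 552 lower. The filter gave 21 and 55, the block 613 higher, a random block for genotype and number 582 lower, and background as a covariate 766 and 669. Of rows, 24244 were higher and 28162 lower at an unadjusted p under 0.05, the block gave 37147 higher, and a mean of at least 5 gave 11145 and 14854 of 222638. Background as a covariate changed the sign of 117 of 250 named genes, leaving out knockout 1 and floxed 2 that of 47, exon-region rows alone that of 22, the mean over rows that of 13 and array weights that of 7, while quantile normalization, the 6 ileum arrays alone and both blocks changed the sign of 0. The cause of these shifts was not tested. Values close to background understate differences, and the depth of an array is limited by its signal over background.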
